A study of Mus musculus with 16 samples.

Results

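The 38 genes described here mark neurons and their synapses: 11 encode parts of the neuronal cytoskeleton, 4 proteins of the growing axon, 8 RNA-binding proteins, 7 proteins of vesicle release, 4 adhesion and postsynaptic proteins and 4 enzymes or carriers of transmitters. They were taken by gene symbol from a table of 54052 entries. RNA was sequenced from ES-E14TG2a, a mouse embryonic stem cell line whose genotype tag reads WT, carrying a short hairpin named shBeclin1 or one named shNT, which is taken as the control. With each hairpin, cells were sampled at day 0 as embryonic stem cells, at day 4 as embryoid bodies, at day 10 as a culture labelled CM and at day 10 as a culture labelled CM without GF, giving 8 groups of 2 libraries and 16 libraries in all. The study set out to learn how Beclin1 knockdown alters differentiation towards the heart lineage, and the neuronal genes follow a lineage other than the one aimed at. The labels do not spell out GF, give 1 hairpin name and no rescue, carry a tissue tag of heart for all samples, and do not say that replicates were separate cultures. P-values therefore measure the spread between these libraries, which may be technical. A batch tag repeats the group, and the effects of batch and group cannot be told apart.

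A young neuron builds an axon on microtubules and neurofilaments, so tubulins, microtubule-associated proteins and neurofilament subunits are among the first genes of the neuronal programme. Neuronal RNA-binding proteins then set the splicing and stability of many transcripts, and SNARE proteins, synaptotagmins and synapsins dock, fuse and hold the vesicles that release transmitter. Outside neurons many of these genes are held off by the repressor REST, which binds the RE1 element. Embryonic stem cells that receive few other instructions are known to turn readily towards neural fates.

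Library totals ran from 14967744 to 21422980 counts. Becn1, which encodes Beclin1, stood at 85.2 to 89.3 CPM (counts scaled to a common library size with TMM factors) in day 0 shNT libraries and at 36.2 and 40.0 in day 0 shBeclin1 libraries. Its log2 difference was -1.20 at day 0, -1.01 at day 4, -0.69 in CM and -0.50 without GF, and the hairpin groups did not overlap at any point. On the reference annotation 43.9% of the Becn1 exon sequence overlaps Cntd1 on the opposite strand, and the sources used here do not say whether counting used strand. The label CM was checked on 20 cardiomyocyte markers. Their summed level was 68.1 and 76.1 CPM in shNT CM and 68.6 to 78.1 CPM in shNT without GF, against 6526 and 6109 CPM in shBeclin1 CM and 4404 and 8121 CPM in shBeclin1 without GF. The shNT cultures labelled CM thus held almost no cardiomyocyte RNA, and the shBeclin1 replicates without GF stood furthest apart on these markers.

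The neuronal genes were most abundant in shNT cells grown without GF. There the summed level of all 38 genes was 2076 and 2150 CPM. It was 483 and 478 CPM in shNT cells at day 0, 582 and 568 CPM at day 4, and 357 and 341 CPM in CM. In shBeclin1 cells the sum was 533 and 542 CPM at day 0, 466 and 474 CPM at day 4, 275 and 277 CPM in CM, and 308 and 342 CPM without GF. Both shNT libraries without GF were far above the other 14, and the shBeclin1 CM libraries were the lowest. Of the 38 genes, 20 were higher in both shNT libraries without GF than in each of the 14 others, and 9 were lower in all 4 day 10 shBeclin1 libraries than in each of the 12 others (Map2, Tubb3, Stmn2, Stmn3, Ina, Nefl, Elavl3, Rbfox3 and Nova1). Of all 19141 tested genes 9.07% met the first rule and 5.46% the second. These are bulk samples, in which fewer neurons and less neuronal RNA per cell cannot be told apart.

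**Figure D1:**
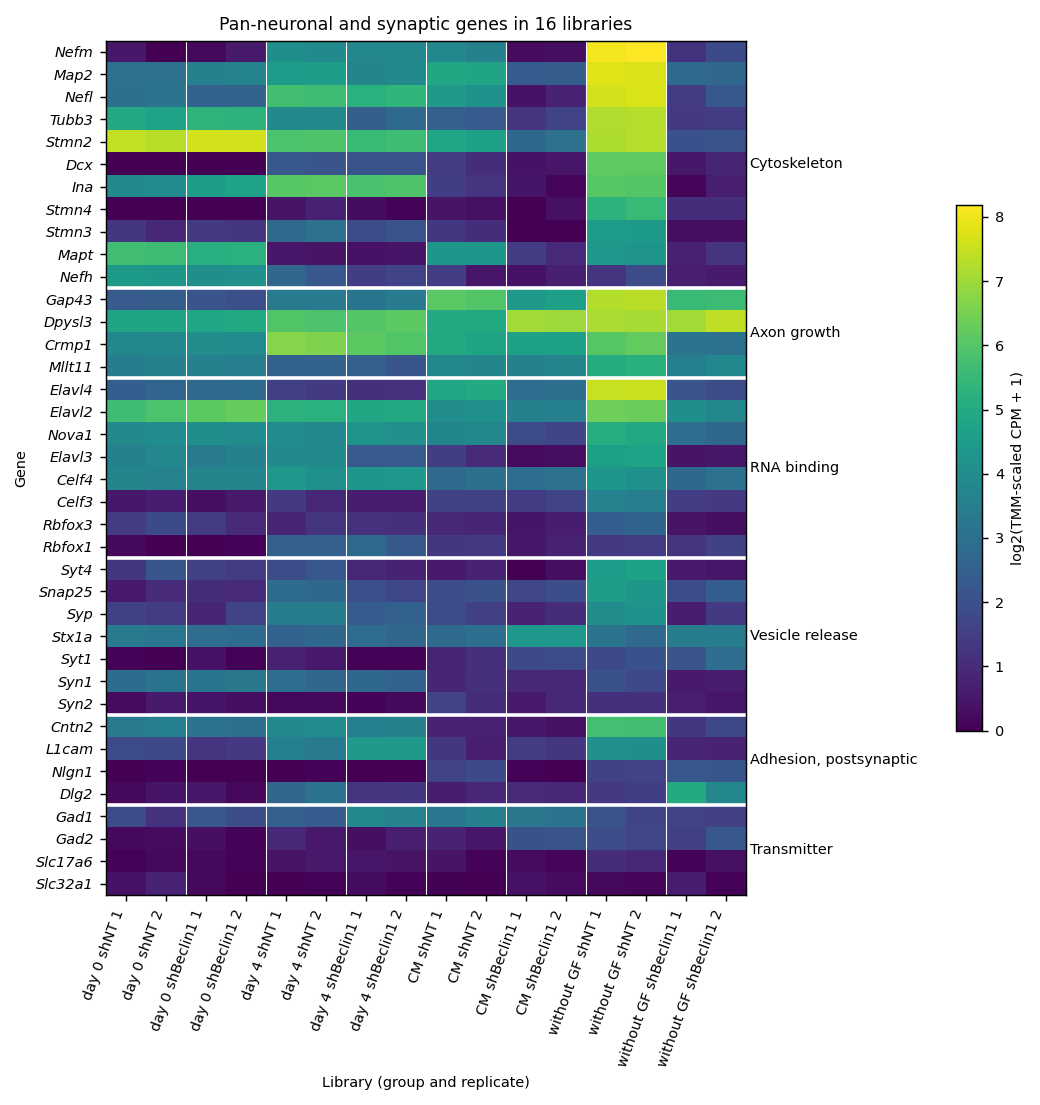
Level of each of the 38 genes (rows, grouped by role) in each of the 16 libraries (columns), as log2 of TMM-scaled CPM plus 1. The 2 shNT libraries without GF are brightest for 20 genes, Stmn2 and Mapt are bright at day 0, and Dpysl3 is bright in shNT without GF and in all 4 day 10 shBeclin1 libraries.

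The genes that made up the sum changed from group to group. At day 0 Stmn2, a stathmin that destabilises microtubules, gave 34.0% of it in shNT and 36.6% in shBeclin1. In shNT cells without GF no gene gave more than 13.0% (Nefm), and the 5 highest, Nefm, Map2, Nefl, Elavl4 and Gap43, gave 48.7% together. In day 10 shBeclin1 cells Dpysl3, a collapsin response mediator protein of the growth cone, gave 46.9% in CM and 46.5% without GF. Per kilobase of merged exons, the highest level in shNT cells without GF was that of Gap43 at 102 CPM per kilobase, followed by Tubb3 at 80.6 and Nefl at 60.0. On the same scale Stmn2 led at day 0, with 29.2 in shNT and 35.1 in shBeclin1.

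In stem cells at day 0 the knockdown moved few of the genes. Of the 37 that passed the filter on low counts, 5 were higher and 2 lower in shBeclin1 than in shNT at an adjusted p under 0.05 in edgeR's quasi-likelihood test, while 5.79% of all 19141 tested genes were higher and 7.55% lower. The median log2 difference of the 37 was 0.03, against -0.01 over all genes, and became -0.04 without shNT replicate 1. Slc32a1, the vesicular transporter of GABA, had 0 to 12 counts per library and did not pass the filter, and this holds for every comparison. The 5 higher genes were Ina (log2 difference 0.78 ± 0.12 SE, adjusted p = 1.86e-05), Map2 (0.62), Tubb3 (0.49), Elavl2 (0.44) and Stmn2 (0.26). The 2 lower genes were Mapt, which encodes tau (-0.47, adjusted p = 0.00299), and the axonal adhesion gene Cntn2 (-0.44, adjusted p = 0.0465). The Mapt call ended without shBeclin1 replicate 1 (adjusted p = 0.0732), as did the Stmn2 call without either shBeclin1 replicate (up to 0.0743). The Cntn2 call ended under 7 of 11 alternatives, at up to 0.283. With total counts in place of TMM factors, 5 of the genes were higher and 4 lower, and the share of higher genes among all called fell from 43.4% to 23.9%.

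Several of the genes were already well expressed in stem cells. Stmn2 stood at 171 and 156 CPM in shNT and 198 and 195 CPM in shBeclin1 at day 0, close to its 143 and 152 CPM in shNT cells without GF. Mapt stood at 50.0 and 47.8 CPM in day 0 shNT libraries and 34.0 and 36.5 CPM in shBeclin1 libraries. Tubb3, the beta tubulin of neurons, stood at 29.5 and 25.3 CPM in shNT and 39.0 and 38.1 CPM in shBeclin1. All 3 were thus abundant outside the culture without GF too. Dcx, a microtubule protein of migrating young neurons, and Stmn4 had 0 counts in all 4 day 0 libraries.

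From day 0 to day 4, 21 of the genes rose and 9 fell in shNT cells, with 34.3% of all genes higher and 32.6% lower. The median log2 difference was 1.15, against 0.00 over all genes. It was 1.16 with Dcx and Stmn4, both at 0 counts at day 0, set to their bounds. Of the neurofilament subunits, Nefl rose from 7.03 and 7.91 CPM to 51.6 and 49.0 CPM (log2 difference 2.75), and Ina, which encodes alpha-internexin, from 13.9 and 14.4 CPM to 65.4 and 67.0 CPM (2.22). Crmp1, a collapsin response mediator, rose from 13.1 and 12.8 CPM to 104 and 96.0 CPM (2.94). Dcx was at least 38.9-fold higher, against a floor of 3 counts over the day 0 group. Mapt fell the furthest, to 0.418 and 0.336 CPM (-6.99), and Stmn2 (-1.48), Tubb3 (-0.97), Nefh (-2.14) and Elavl4 (-1.46) also fell. The groups did not overlap for any of the genes named here. With total counts as scaling the share of higher genes among all called went from 51.3% to 43.0% and the median of all genes moved by -0.12, while 21 and 9 of the neuronal genes were again called.

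At day 4 the knockdown lowered 16 of the genes and raised 3, with 10.1% of all genes lower and 10.7% higher. Their median log2 difference was -0.33, against 0.02 over all genes. The lower genes included Tubb3, at 13.6 and 14.3 CPM in shNT and 4.58 and 5.96 CPM in shBeclin1 (-1.39 ± 0.14 SE, adjusted p = 8.38e-10). Elavl3, an RNA-binding protein of the Hu family, stood at 13.7 and 13.9 CPM against 4.05 and 4.06 CPM (-1.76). Map2, whose protein binds dendritic microtubules, stood at 21.5 and 23.1 CPM against 12.2 and 14.1 CPM (-0.76). In each of these the hairpin groups were clearly apart.

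Of the 7 genes of vesicle release, 4 were lower at day 4, and Stx1a, Syn1 and Syn2 did not pass the test. The log2 difference was -1.95 for Syt4, a synaptotagmin, -1.19 for the SNARE gene Snap25 and -1.15 for Syp, a membrane protein of the vesicle. Syt1, the calcium sensor for fast release, had so few counts in shBeclin1 that only a ratio can be given: it was 9.61 times higher in shNT, with a 95% counting interval of 2.28 to 85.8. The 3 raised genes were Gad1, an enzyme of GABA synthesis, at 4.67 and 4.17 CPM in shNT and 13.1 and 11.3 CPM in shBeclin1 (1.46, adjusted p = 8.75e-07), the axonal adhesion gene L1cam, at 10.7 and 9.08 CPM against 20.3 and 20.1 CPM (1.03), and the splicing regulator Nova1 (0.34). The Nova1 call ended under 7 of 11 alternatives, among them each left-out library, at an adjusted p of up to 0.329. Without shBeclin1 replicate 1 the count fell to 8 lower and 2 higher, and without shNT replicate 1 to 10 lower and 2 higher. Cntn2, Celf3, Dlg2, Nefl, Nefh, Elavl2, Stmn2 and Syt1 each lost the call without at least 1 of the 4 libraries. With total counts as scaling the share of higher genes among all called went from 51.5% to 38.2%.

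Between day 4 and day 10, the median of the genes moved in opposite directions in the 2 shNT cultures. Single genes did not all do so. Elavl4, Gap43, Map2, Mapt, Mllt11, Nlgn1 and Syn2 rose in both, and Crmp1, Dlg2, Nefh, Rbfox1 and Syn1 fell in both. Without GF 28 of the genes rose and 6 fell, with 35.7% of all genes higher and 33% lower; in CM 8 rose and 20 fell, with 36.8% higher and 33.2% lower. The median log2 differences were 1.77 and -1.03, against 0.06 and 0.07 over all genes. Both comparisons use the same day 4 libraries. With total counts as scaling, the median of all genes moved by 0.21 and 0.20. The shares of higher genes among all called then went from 52.0% to 62.4% and from 52.6% to 61.8%, and the neuronal genes split 29 to 5 without GF and 10 to 20 in CM.

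Without GF the rises were greatest in Elavl4 (6.67), Stmn4 (6.32), Mapt (5.60), Dcx (4.26), Nefm (4.21) and Gap43 (4.04). In CM, Mapt (5.62), Elavl4 (4.02), Gap43 (2.76) and Mllt11 (1.38) also rose, while Ina (-5.33), Cntn2 (-4.27), Elavl3 (-3.21) and L1cam (-3.12) fell. Nlgn1, a postsynaptic adhesion protein that binds neurexins, went from 1 count over the day 4 group to 2.23 and 2.52 CPM in CM, a ratio of 68.8 with a counting interval of 12.1 to 2746. Set side by side, 29 of the genes were lower and 1 higher in shNT CM than in shNT without GF, with 25.9% of all genes lower and 26.9% higher. The median was -2.37, against 0.00 over all genes. The higher gene was Gad1, at 8.23 and 10.8 CPM in CM and 3.23 and 2.29 CPM without GF (1.78, adjusted p = 1.21e-08).

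In shBeclin1 cells most of the genes fell after day 4 in both cultures. In CM 10 rose and 22 fell, with 37.3% of all genes higher and 35.1% lower, and without GF 13 rose and 21 fell, with 38% higher and 35.8% lower. The medians were -1.43 and -1.45, against 0.02 and 0.03 over all genes, and again both comparisons share their day 4 libraries. With total counts as scaling the median of all genes moved by 0.16 and 0.25, and the share of higher genes without GF went from 51.5% to 60.9%. The neuronal genes then split 10 to 21 in CM and 14 to 21 without GF. Ina fell from 56.3 and 60.0 CPM to 0.386 and 0.117 CPM in CM and to 0.114 and 0.607 CPM without GF. Dpysl3 rose from 63.4 and 68.3 CPM to 133 and 126 CPM in CM and to 133 and 169 CPM without GF, and Gap43, a growth cone protein, from 8.04 and 9.29 CPM to 20.3 and 23.5 CPM and to 44.5 and 48.1 CPM.

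Between the shBeclin1 cultures themselves, 14 of the genes were lower and 6 higher in CM than without GF, with 16.7% of all genes lower and 20.3% higher. The median was -0.28, against 0.00 over all genes, and was 0.00 without the second shBeclin1 replicate grown without GF. With total counts as scaling the share of higher genes among all called went from 54.9% to 42.2%, and the neuronal genes again split 6 to 14. The 6 higher genes were Gad1 (2.00), Crmp1 (1.68), Elavl4 (1.16), Stx1a (1.00), Stmn2 (0.99) and L1cam (0.95). The L1cam call ended under 6 of 11 alternatives, each left-out library included (adjusted p up to 0.133).

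**Figure D2:**
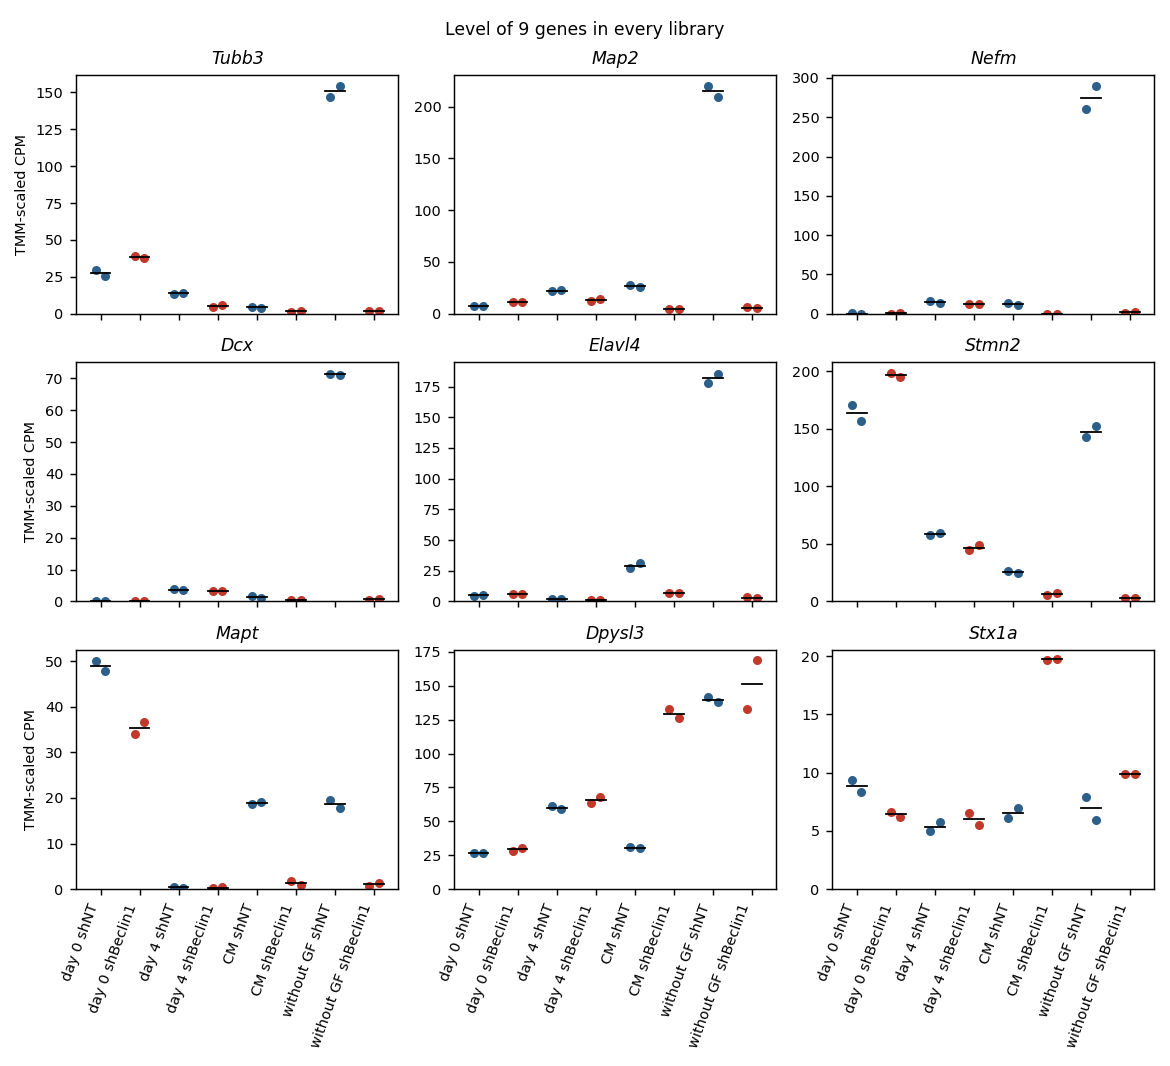
TMM-scaled CPM (vertical axis, from 0, a scale of its own in each panel) of 9 genes in the 8 groups, blue for shNT and red for shBeclin1, with a point per library and a bar at the group mean. Tubb3, Map2, Nefm, Dcx and Elavl4 stand out in shNT without GF, Stmn2 and Mapt are also high at day 0, Dpysl3 is high in both day 10 shBeclin1 groups and in shNT without GF, and Stx1a is highest in shBeclin1 CM.

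The widest knockdown difference lay in the culture without GF. Of the 37 tested genes, 29 were lower and 4 higher in shBeclin1, with 27.3% of all genes lower and 27.3% higher. The median log2 difference was -2.69, against -0.01 over all genes, and the 29 lower genes were all at least 2-fold lower. All 11 cytoskeletal genes were lower, with a median of -6.17. Of the others, 3 of 4 growth genes (median -1.63), 7 of 8 RNA-binding genes (-2.60), 5 of 7 vesicle genes (-2.36), 2 of 4 adhesion and postsynaptic genes and 1 of 3 tested transmitter genes were lower.

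Among the cytoskeletal genes, Tubb3 (chromosome 8, 123411424 to 123422015, plus strand, mm10) stood at 147 and 154 CPM in shNT and 1.54 and 1.72 CPM in shBeclin1 (log2 difference -6.52 ± 0.14 SE, adjusted p = 5.92e-31). Nefm, the medium neurofilament subunit (chromosome 14, 68082590 to 68124846, minus strand), stood at 260 and 290 CPM against 1.31 and 2.58 CPM (-7.11). Dcx (chromosome X, 143855842 to 143933311, minus strand) stood at 71.5 and 71.0 CPM against 0.456 and 0.809 CPM (-6.78). In all 3 the shBeclin1 libraries lay below every shNT library taken at day 4 or later. Map2 (chromosome 1, 66175273 to 66442583, plus strand) stood at 220 and 210 CPM against 6.09 and 5.46 CPM (-5.22), Ina at 65.0 and 63.2 CPM against 0.114 and 0.607 CPM (-7.39), and Stmn3 at 21.3 and 20.9 CPM against 0.228 and 0.253 CPM (-6.41). Stmn2 stood at 143 and 152 CPM against 3.19 and 3.34 CPM (-5.49) and Nefl at 195 and 210 CPM against 1.71 and 3.79 CPM (-6.17). The hairpin groups were far apart in each. Of the Nefl exon sequence 32.8% overlaps Nefm on the opposite strand, and of the Ina exon sequence 14.1% overlaps Nt5c2. Opposite-strand overlap also covers 19.2% of Nefm, 16.8% of Syp, 14.5% of Syt4 and 24.9% of Slc32a1. Counts of these genes may therefore include reads of a neighbour.

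The RNA-binding genes behaved alike but for Rbfox1. Elavl4 stood at 178 and 186 CPM in shNT and 3.48 and 2.78 CPM in shBeclin1 (-5.87, adjusted p = 1.31e-31), and Elavl2 at 83.0 and 79.0 CPM against 15.8 and 12.8 CPM (-2.51). Rbfox3, which encodes the nuclear antigen NeuN, stood at 4.41 and 5.27 CPM against 0.342 and 0.253 CPM (-4.00). Nova1 stood at 33.1 and 29.9 CPM against 6.72 and 5.86 CPM (-2.33). Rbfox1, also a splicing regulator, did not pass the test, at 1.61 and 1.72 CPM in shNT and 1.42 and 2.07 CPM in shBeclin1.

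Among genes for synaptic and adhesion proteins the RNA levels were mixed. Snap25 stood at 22.3 and 19.0 CPM in shNT and 2.62 and 4.50 CPM in shBeclin1 (-2.52), and Syt4 at 22.0 and 24.7 CPM against 0.513 and 0.404 CPM (-5.66). Cntn2 stood at 52.0 and 51.4 CPM against 1.48 and 2.43 CPM (-4.70), and L1cam at 16.1 and 15.7 CPM against 0.855 and 0.758 CPM (-4.29). These 4 were each lower without overlap. The 4 genes that were higher in shBeclin1 also encode synaptic proteins: Dlg2, a postsynaptic scaffold, Syt1, Nlgn1 and the SNARE gene Stx1a. Which cells in the cultures held their RNA was not tested. Dlg2 stood at 1.55 and 1.89 CPM in shNT and at 30.8 and 12.7 CPM in shBeclin1 (3.64 ± 0.44 SE, adjusted p = 2e-05), and the replicate with more Dlg2 was the one with fewer cardiomyocyte transcripts, a relation that was not tested. Syt1 stood at 2.48 and 3.21 CPM against 3.48 and 6.52 CPM (0.82), Nlgn1 at 2.05 and 2.23 CPM against 3.65 and 3.59 CPM (0.75) and Stx1a at 7.94 and 5.96 CPM against 9.86 and 9.91 CPM (0.51). Without shNT replicate 2 Stx1a no longer passed (adjusted p = 0.188), nor did Nlgn1 without any 1 of the 4 libraries and in DESeq2 (up to 0.293). Syt1 no longer passed in DESeq2, without shNT replicate 1 or without shBeclin1 replicate 2 (up to 0.527), so Dlg2 was the sole one of the 4 to pass in all alternatives run. Crmp1, at 63.5 and 72.8 CPM against 7.86 and 7.38 CPM, was lower (-3.16), while its relative Dpysl3 did not pass the test, at 142 and 138 CPM against 133 and 169 CPM. Gad2, the second enzyme of GABA synthesis, did not pass either, at 2.85 and 2.35 CPM against 1.94 and 3.64 CPM.

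In the CM culture the knockdown lowered 19 of the genes and raised 4, with 19.1% of all genes lower and 19.2% higher. The median was -1.21, against -0.02 over all genes, and stayed at -1.21 with Stmn3, at 0 counts in shBeclin1, set to its bound. Of the 11 cytoskeletal genes 9 were lower, with a median of -2.67. Nefl stood at 20.1 and 17.5 CPM in shNT and 0.322 and 0.761 CPM in shBeclin1 (-5.08 ± 0.26 SE, adjusted p = 1.19e-14), and Nefm at 13.1 and 10.9 CPM against 0.193 and 0.234 CPM (-5.77). Mapt stood at 18.6 and 19.1 CPM against 1.80 and 0.995 CPM (-3.76), and Map2 at 28.1 and 26.2 CPM against 4.25 and 4.27 CPM (-2.67). All 4 were lower without overlap. Stmn3, with 1.53 and 1.08 CPM in shNT, was at least 14.6-fold lower, and Nlgn1, with 1 count over the shBeclin1 group, was 76.8 times higher in shNT (counting interval 13.5 to 3067). With total counts as scaling 20 of the genes were lower and 4 higher, and the share of higher genes among all called went from 50.1% to 36.7%.

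The 4 genes raised in CM were Dpysl3, Gad2, Stx1a and Syt1. Dpysl3 stood at 30.8 and 30.2 CPM in shNT and 133 and 126 CPM in shBeclin1 (2.08 ± 0.08 SE, adjusted p = 1.14e-20). Stx1a stood at 6.08 and 6.97 CPM against 19.7 and 19.8 CPM (1.60), the highest level of this gene in the series. Gad2 stood at 0.744 and 0.420 CPM against 3.09 and 3.39 CPM (2.41), and Syt1 at 0.788 and 1.20 CPM against 2.51 and 2.69 CPM (1.42). The Syt1 call ended without shNT replicate 1 (adjusted p = 0.0673). Among the lower genes, the calls of Rbfox1, Syp, Syt4 and Syn2 each ended without shBeclin1 replicate 1 (adjusted p up to 0.453 over all alternatives), and those of Syp and Syn2 also without shNT replicate 1 and that of Syt4 without shNT replicate 2.

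The other members were lower without GF or had their highest level elsewhere. Gap43 stood at 149 and 161 CPM in shNT without GF and 44.5 and 48.1 CPM in shBeclin1 (-1.74), and was lower in CM too, at 66.5 and 60.8 CPM against 20.3 and 23.5 CPM (-1.54). Mllt11 (-1.52), the RNA-binding genes Celf3 (-2.69) and Celf4 (-1.39), Elavl3 (-5.94), Syp (-3.86) and Stmn4 (-5.23) were lower without GF, and of these 6 genes Elavl3 and Syp were also lower in CM. Syn1, a synapsin that coats vesicles, was highest at day 0, at 6.45 to 8.66 CPM, and without GF stood at 3.10 and 2.46 CPM in shNT and 0.513 and 0.556 CPM in shBeclin1 (-2.36). Nefh, the heavy neurofilament subunit, was also highest at day 0, at 20.8 and 19.1 CPM in shNT, and lay below 3 CPM in every day 10 library. Its call without GF (-1.85) ended without shNT replicate 2 (adjusted p = 0.079). Syn2 stayed at or below 2.10 CPM and Slc17a6, a vesicular glutamate transporter, at or below 1.12 CPM in every library. Both were called lower without GF in edgeR and neither in DESeq2 (adjusted p up to 0.235 for Syn2 and 0.0553 for Slc17a6 over all alternatives).

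**Figure D3:**
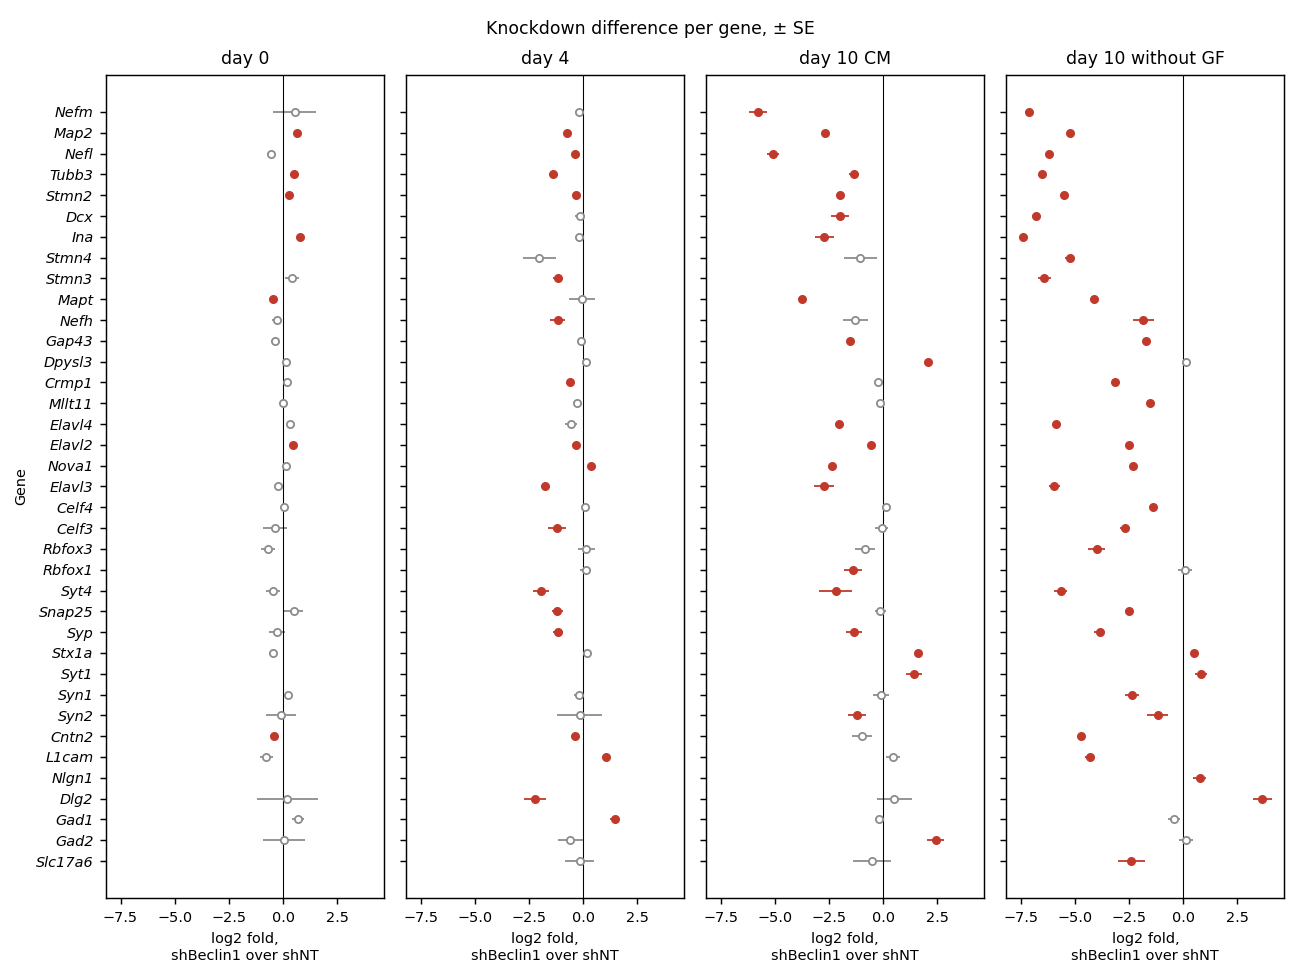
Log2 fold of shBeclin1 over shNT (horizontal axis, bars ± SE) for the 37 tested genes (rows) at day 0, day 4, day 10 CM and day 10 without GF, with filled red points at an adjusted p under 0.05 in edgeR's quasi-likelihood test and open grey points otherwise. Genes with 3 counts or fewer over a group are not drawn; 29 points lie left of 0 in red without GF and 19 genes were lower in CM, of which 17 are drawn.

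The knockdown difference itself was set against that of the other culture. In the test of the difference, the log2 knockdown effect in CM was above that without GF for 23 of the genes and below it for 3, with 16.2% of all genes above and 18.2% below, and a median of 1.97 against -0.01. For genes called lower in both cultures, a value above 0 means a smaller decrease in CM. Of the others with such a value, Dpysl3, Gad2 and Stx1a were called higher in CM. Celf3, Celf4, Cntn2, Crmp1, L1cam, Mllt11, Rbfox3, Snap25, Stmn4 and Syn1 were not called in CM. The effect on Tubb3 was -1.35 in CM and -6.52 without GF, a difference of 5.18 ± 0.33 SE (adjusted p = 1.56e-15). The effects on Elavl4 were -2.06 and -5.87 (difference 3.81), and those on Map2 -2.67 and -5.22 (difference 2.55). For these 3 genes shNT levels were also far higher without GF. The 3 genes with the lower effect in CM were Nlgn1, Dlg2 (-3.13) and Rbfox1 (-1.46); the Dlg2 call ended under 7 alternatives (adjusted p up to 0.17) and the Rbfox1 call under 6 (up to 0.146). Mapt, Nefl, Nefm, Stmn3, Gap43, Nova1 and Syn2 were called lower in both cultures and did not pass the test of the difference, which does not show that the effects were equal. Nefl did pass it in DESeq2 (1.08, adjusted p = 0.0303), without shBeclin1 CM replicate 1 (1.56, adjusted p = 0.0424) and without shBeclin1 replicate 2 of the culture without GF (1.81, adjusted p = 0.00193).

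Against day 4, the knockdown effect in CM was lower for 13 of the genes and higher for 6, with 13.9% of all genes lower and 12.2% higher, and a median of -0.57 against -0.05. The median was -0.34 without shNT CM replicate 1 and -0.92 without shBeclin1 CM replicate 2. The lower genes were mostly cytoskeletal, 8 of 11, among them Nefm (-5.57), Nefl (-4.68), Mapt (-3.71) and Map2 (-1.92). Those with a higher effect were Syt1, Gad2, Dpysl3 (1.95), Stx1a (1.44), Snap25 (1.04) and Crmp1 (0.39). The Gad2 call ended without day 4 shNT replicate 1 (adjusted p = 0.0523), and the Snap25 and Crmp1 calls ended without each of 4 libraries (up to 0.139 and 0.11).

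Because many of the genes fell together, their start regions were searched for exact copies of a pair of short motifs on both strands, in RefSeq windows of 300 bases (250 before to 50 after each start, GRCm38.p6). Windows were held for 27 of the 38 genes, 51 in all. CAGCACC, 1 end of the RE1 element, was found in 7.14% of all 32851 windows and in 3 of the 51, those of Nlgn1, Syn1 and Tubb3. CAGCTG, an E-box of the kind that proneural factors bind, was found in 16.3% of all windows and in 15 of the 51, which belong to 10 genes (Celf3, Dlg2, Elavl2, Elavl3, Elavl4, Ina, Nova1, Rbfox1, Stx1a and Syt1). Of these 10 genes, Dlg2, Stx1a and Syt1 were called higher with the knockdown without GF and Rbfox1 was not called. The rest were called lower. Of the genes with CAGCACC, Nlgn1 was called higher and Syn1 and Tubb3 lower. A relation between motif and direction was not tested. The motifs do not overlap each other in the windows below. A match is a description of the letters and no sign that a factor was bound. The windows of Syn1 (chrX:20920869-20921168, minus strand) and Tubb3 (chr8:123411303-123411602, plus strand) are shown for the first motif, and those of Elavl3 (chr9:22051974-22052273, minus strand) and Ina (chr19:47014431-47014730, plus strand), both lower by over 5 log2 units without GF, for the second. Each reads 5′ to 3′ along its gene with the motif in capitals, which in Tubb3 is read on the opposite strand.
Syn1: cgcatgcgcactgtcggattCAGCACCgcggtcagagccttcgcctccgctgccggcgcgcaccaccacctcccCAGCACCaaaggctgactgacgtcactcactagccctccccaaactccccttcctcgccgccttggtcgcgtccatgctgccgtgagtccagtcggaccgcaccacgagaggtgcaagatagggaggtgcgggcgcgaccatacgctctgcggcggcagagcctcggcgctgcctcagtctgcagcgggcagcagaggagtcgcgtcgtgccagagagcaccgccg
Tubb3: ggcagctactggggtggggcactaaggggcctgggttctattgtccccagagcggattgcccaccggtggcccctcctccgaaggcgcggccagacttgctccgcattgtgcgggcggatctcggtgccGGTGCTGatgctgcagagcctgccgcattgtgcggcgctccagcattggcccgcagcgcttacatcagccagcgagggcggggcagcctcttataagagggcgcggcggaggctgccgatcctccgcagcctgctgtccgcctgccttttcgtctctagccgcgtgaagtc
Elavl3: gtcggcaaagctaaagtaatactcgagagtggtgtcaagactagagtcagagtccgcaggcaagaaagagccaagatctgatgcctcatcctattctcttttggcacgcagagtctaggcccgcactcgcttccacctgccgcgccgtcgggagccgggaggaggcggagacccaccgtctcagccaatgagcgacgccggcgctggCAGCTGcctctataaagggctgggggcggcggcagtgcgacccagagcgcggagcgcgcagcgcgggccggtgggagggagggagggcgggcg
Ina: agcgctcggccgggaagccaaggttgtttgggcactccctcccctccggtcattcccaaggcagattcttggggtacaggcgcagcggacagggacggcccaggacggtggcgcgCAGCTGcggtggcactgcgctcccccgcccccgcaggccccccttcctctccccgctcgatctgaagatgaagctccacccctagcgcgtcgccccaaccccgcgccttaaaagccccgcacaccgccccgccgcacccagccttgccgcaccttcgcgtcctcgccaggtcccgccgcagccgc

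Genes around the neuronal programme were counted from lists that, like the set itself, were chosen with earlier results known. The shares of all tested genes that were higher and lower, against which each count is to be read, were 5.79% and 7.55% at day 0, 10.7% and 10.1% at day 4, 19.2% and 19.1% in CM, and 27.3% in each direction without GF. Of 38 other neuronal and synaptic genes, 12 were lower with the knockdown at day 0. At day 4, 4 were higher and 14 lower, in CM 10 higher and 17 lower, and without GF 8 higher and 27 lower. Nrcam, a neuronal adhesion gene, stood at 199 and 187 CPM in shNT without GF and 2.11 and 2.83 CPM in shBeclin1. Nsg2 stood at 92.0 and 96.6 CPM against 11.6 and 8.64 CPM. Sv2a, a vesicle glycoprotein, went the other way, at 8.93 and 10.2 CPM against 58.7 and 66.9 CPM.

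Markers of neural progenitors moved with the neuronal genes. Of 15, 13 were lower and 1 higher (Lhx2) in CM, and 14 lower and 1 higher (Pax6) without GF. Sox2, a factor of stem cells and neural progenitors, stood at 150 and 139 CPM in shNT without GF and 5.41 and 4.80 CPM in shBeclin1 (-4.82), after 571 to 591 CPM in all day 0 libraries. Of 24 proneural and neuronal subtype factors 19 were tested, of which 15 were lower and 1 higher in CM and 17 lower and 1 higher without GF. The higher one was each time Isl1, which also marks cardiac progenitors, at 62.0 and 69.1 CPM against 131 and 118 CPM without GF. Ebf1 stood at 46.8 and 49.7 CPM against 1.20 and 1.72 CPM.

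Markers of other cell types moved the other way or both ways, and some of the shares called, such as 2 of 14 crest genes higher in CM, lie close to or below those of all genes. All 20 cardiomyocyte markers were higher in shBeclin1 in both day 10 cultures. Their part in the level of the neuronal genes was not tested. Of 12 mesenchyme and fibroblast genes 4 were higher and 6 lower in CM and 5 higher and 4 lower without GF. Their summed level was 2437 and 2246 CPM in shNT CM and 4438 and 4680 CPM in shBeclin1 CM. Without GF it was 2196 and 2208 CPM in shNT and 4456 and 4660 CPM in shBeclin1. In CM the rise lay largely in Acta2, with 2455 and 2161 counts in shNT and 28125 and 32332 in shBeclin1. Without GF it lay largely in Acta2 (3254 and 3154 against 23299 and 32617 counts) and Col1a1 (4476 and 4788 against 28031 and 31655). The mean log2 of CPM plus 1 over the list was 6.34 and 6.28 in shNT CM and 6.03 and 5.99 in shBeclin1 CM. Without GF it was 6.02 and 5.95 against 6.04 and 5.99. Of 15 neural crest, peripheral and chromaffin genes 14 were tested: 2 were higher and 6 lower in CM, and 3 higher and 8 lower without GF. Of 12 glial genes 9 were tested: 2 were higher and 4 lower in CM, and 4 higher and 1 lower without GF.

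A further list of 15 genes held the REST complex, its regulators and the splicing genes Ptbp1 and Ptbp2. Of these, 6 were higher and 3 lower in CM, and 8 higher and 5 lower without GF. The lower shares lie close to the 19.1% and 27.3% of all genes, while 19.2% and 27.3% of all genes were higher. Rest itself, named after its values were seen, stood at 92.1 and 87.0 CPM in shNT and 126 and 120 CPM in shBeclin1 without GF (0.46 ± 0.07 SE, adjusted p = 4.49e-07). In CM it did not pass the test, at 137 and 141 CPM against 147 and 145 CPM. Its level was highest at day 0, at 431 to 508 CPM.

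**Figure D4:**
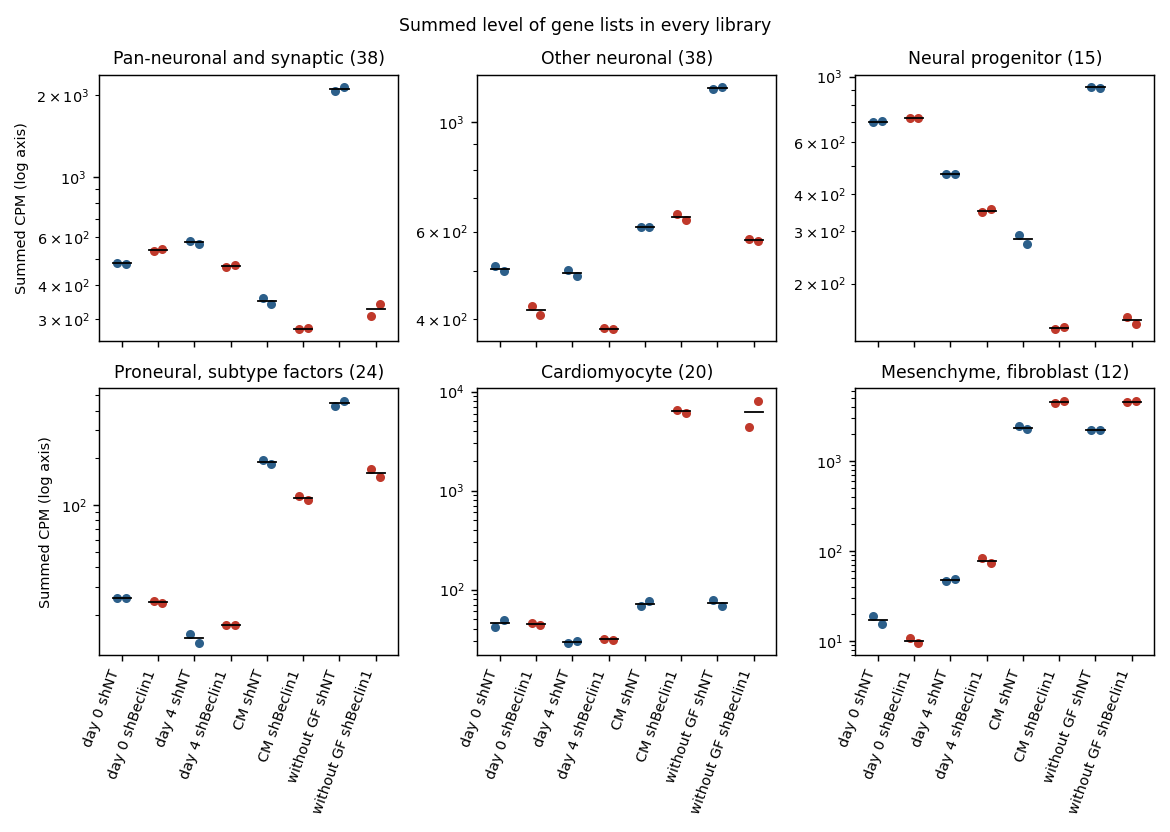
Summed TMM-scaled CPM (vertical axis, log scale) of the neuronal gene set and of 5 other lists in the 8 groups, blue for shNT and red for shBeclin1, with a point per library and a bar at the group mean. The neuronal set reaches 2076 and 2150 CPM in shNT without GF, and the cardiomyocyte list rises only in the 4 day 10 shBeclin1 libraries.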

How the data were processed

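Libraries were made from total RNA of mouse ES-E14TG2a cells and their derivatives; the labels name both polyA RNA and an rRNA depletion kit, so the RNA fraction kept is not settled. The authors deposited raw counts in a single table, with a row per gene symbol and a column per library. Per the submitters' processing notes, Trimmomatic 0.36, featureCounts, Subread 1.5.1 and SAMtools were used with mm10. The sources used here give neither the role of each tool nor the aligner, annotation or strand setting.

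Of 54052 entries, 18471 were 0 in every library, and 882 with a repeated symbol were kept apart. With edgeR 4.0.16 in R 4.3.3, filterByExpr kept 19141 entries, libraries were scaled by TMM (factors 0.884 to 1.08), and a robust quasi-likelihood model with 1 mean per group was fitted to all 16 libraries, leaving 8 residual degrees of freedom (common biological coefficient of variation 5.38%). Calls were made at a Benjamini-Hochberg adjusted p under 0.05 over all tested genes, in 13 comparisons. Alternatives were total counts or DESeq2 size factors as scaling, DESeq2 1.42.0, no or a stricter count filter, only the compared groups, a replicate block and leaving out each library. The fit was tested on simulated data.

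The member genes and the other lists were chosen with earlier results of these data known. Values in each library are given by rule for the 2 most abundant genes of each role and the 3 largest called changes each way per knockdown comparison; others were added after their values were seen. A group with 0 counts was set to a floor of 3 counts, taken over both libraries; with 1 to 3 counts a ratio with its 95% interval is given, which covers counting error only. Replicates of a group differed by more than sampling noise (chi-square per degree of freedom 1.42 to 7.91). Gene positions are from GENCODE on mm10 and promoter windows from RefSeq.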

Additional observations from a re-analysis of the deposited data

Results flagged for a closer look

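The knockdown difference was not the same in both day 10 cultures for 26 of the 37 tested genes, by the test of the difference itself in edgeR. Of all 19141 tested genes, 16.2% had a higher effect in CM and 18.2% a lower one by the same test. Among the 24 genes taken by the naming rule, leaving out any with 3 counts or fewer over a group, the log2 effect in CM minus that without GF was 5.18 for Tubb3, 4.78 for Dcx, 4.76 for L1cam, 4.68 for Ina, 3.81 for Elavl4, 3.72 for Cntn2, 3.50 for Stmn2, 3.47 for Syt4, 2.95 for Crmp1, 2.55 for Map2, 2.37 for Snap25, 2.30 for Gad2, 1.97 for Dpysl3, 1.94 for Elavl2, 1.09 for Stx1a and -3.13 for Dlg2. In Dpysl3, Gad2 and Stx1a the effect in CM was itself above 0. The summed level of the 38 genes was 275 and 277 CPM in shBeclin1 CM and 308 and 342 CPM in shBeclin1 without GF. In shNT it was 357 and 341 CPM in CM and 2076 and 2150 CPM without GF. The values above therefore also carry the difference between the shNT cultures, and a low shNT level limits how far a gene can fall in CM. L1cam was lower without GF (-4.29) and did not pass the test in CM, at 1.53 and 0.601 CPM in shNT and 1.67 and 1.46 CPM in shBeclin1. The Syt4 and Ina values rest on 4 and 8 counts in shBeclin1 CM; the Ina call ended without shBeclin1 CM replicate 1 (adjusted p = 0.0555) and the Syt4 call without any 1 of 3 libraries (up to 0.763).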

How the results depend on the processing

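The counts of neuronal genes called stayed within 1.5 times of those reported in 11 of the 13 comparisons, under every alternative run. At day 0 the 7 called genes ranged from 4 to 8 when libraries were left out in turn, and at day 4 the 19 called genes ranged from 10 to 16. Over all genes, the 2555 called at day 0 became 1241 in a fit of the compared groups alone and 1693 in DESeq2, and ranged from 920 to 3011 with a library left out; the 3975 called at day 4 ranged from 2514 to 2644. Values of Becn1 and the 24 genes taken by the naming rule were followed in the 4 knockdown comparisons and the difference between cultures. Of these, 1393 kept their side of the threshold, 55 lost the call and 15 gained it. Among the 1393, direction was required to stay the same only for values that were called. The sole called value of these that changed sign was that of Syt4 in the difference between cultures. It ranged from -0.65 (without shBeclin1 CM replicate 2) to 4.37 with libraries left out, against 3.47. Syt4 had 0 and 4 counts in shBeclin1 CM replicates 1 and 2. The -0.65 therefore rests on a group at 0 counts with no floor set, and is no measure of a reversed effect. What set its sign was not tested. No pairing of libraries by replicate number was seen: the correlation of replicate differences between groups was -0.02 to 0.02 across genes. Counting noise in genes of low level pulls such a value towards 0, so it cannot show that the libraries were unpaired. With the replicate number as a block, 33 instead of 34 neuronal genes were called in shNT without GF against day 4 (Slc17a6 was lost) and 20 instead of 19 in the difference between CM and day 4. With 2 libraries per group and several genes below 1 CPM in a group, small differences of the transmitter genes and of Syn2, Rbfox1, Nlgn1 and Slc17a6 are limited by depth.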
